A study of Mus musculus with 12 samples.

Results

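The nuclear genes of oxidative phosphorylation were followed in mouse liver by RNA sequencing. Members were taken by symbol: every gene whose symbol begins with Nduf, Uqcr, Cox4 to Cox8 or Atp5, or is Sdha, Sdhb, Sdhc or Sdhd, provided that the gene is listed in all 4 deposited tables, 1 table for each group of mice. The 4 assembly factors whose symbols begin with Sdhaf were added. This gave 92 genes of the 13371 listed in all 4 tables. Of these, 39 belong to complex I, 4 to complex II, 8 to complex III, 12 to complex IV and 17 to complex V, and 12 are assembly factors, of which 8 are Ndufaf and 4 are Sdhaf genes. All 92 passed the filter on low counts that left 12909 genes for testing. Beside symbols, the rule used measured values only through the listing, which needs a TPM of at least 0.01 in each library of a group. It left out 4 genes with a matching symbol.

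There were 12 male C57BL/6 mice, 3 in each of 4 groups, and 1 liver library per mouse. The groups were Otud3 knockout with diethylnitrosamine (DEN), wild type (WT) with DEN, Otud3 knockout with No DEN and WT with No DEN, where WT mice were littermates of the knockouts. DEN, a carcinogen that liver enzymes activate, was injected once into the abdomen at 25 mg/kg in mice aged 15 days, to induce hepatocellular carcinoma, and these mice were killed 30 weeks later. For No DEN mice the labels used here give neither an age nor an injection of saline, so DEN, age and handling cannot be told apart. Whether a piece of liver carried a nodule is not given either, nor how Otud3, which encodes a deubiquitinase, was inactivated, nor in which cells. Otud3 itself had 290, 406 and 407 reads in DEN knockout libraries, 560, 431 and 488 in DEN WT, 409, 301 and 201 in No DEN knockout and 367, 390 and 350 in No DEN WT. These values overlap, and averaged over treatments the knockout to WT log2 fold change was −0.33 ± 0.19 (SE, edgeR quasi-likelihood adjusted p = 0.768). A count over a whole gene does not check a deletion of part of it, so the knockout groups are called labelled knockout.

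Oxidative phosphorylation makes ATP in the inner mitochondrial membrane. Complex I oxidises NADH and complex II oxidises succinate, complex III passes the electrons from ubiquinol to cytochrome c, and complex IV passes them to oxygen. Complexes I, III and IV pump protons, and complex V, the ATP synthase, uses their return to make ATP. Nearly all subunits are encoded in the nucleus and a few in mitochondrial DNA, and hepatocytes, which spend much ATP on synthesis and detoxification, are rich in mitochondria. The mitochondrially encoded subunits are not analysed here.

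On the per-length TPM scale, which allows levels of different genes to be compared, the 92 genes together held 32721, 33761 and 37697 TPM in DEN labelled knockout, 32428, 29767 and 36307 in DEN WT, 25185, 34656 and 40732 in No DEN labelled knockout and 40476, 37224 and 41225 in No DEN WT. The DEN libraries lie within the range of the No DEN ones on this scale. Complex IV holds the gene with the highest mean, Cox7c, a small structural subunit, at 1416 TPM over 12 libraries (lowest 1032, highest 1921). Ndufa4, counted here with complex I by its symbol although its protein is now assigned to complex IV, averaged 1369 TPM. Atp5g3, 1 of 3 genes for the ring subunit c of the ATP synthase, led complex V with 1195 TPM. Uqcr11, a small subunit, led complex III with 1069 TPM, and Sdhb, the iron-sulphur subunit, led complex II with 306 TPM. Cox7c, Ndufa4 and Atp5g3 overlap in their ranges over libraries, so their order is not separated by the spread. The lowest members of complexes III, V and II were Uqcrc2, a core protein, at 152 TPM, Atp5pb, of the peripheral stalk, at 252 TPM, and Sdhd, a membrane anchor, at 167 TPM. Only 2 subunit genes had a mean under 20 TPM: Ndufa4l2, a paralogue of Ndufa4 known for its induction by low oxygen, at 2.45 TPM, and Cox7a1, the heart and muscle form of subunit VIIa, at 10.7 TPM. Assembly factors, which are needed only while complexes are built, ranged in mean from 4.70 TPM for Ndufaf5 to 56.7 TPM for Ndufaf8.

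**Figure D1:**
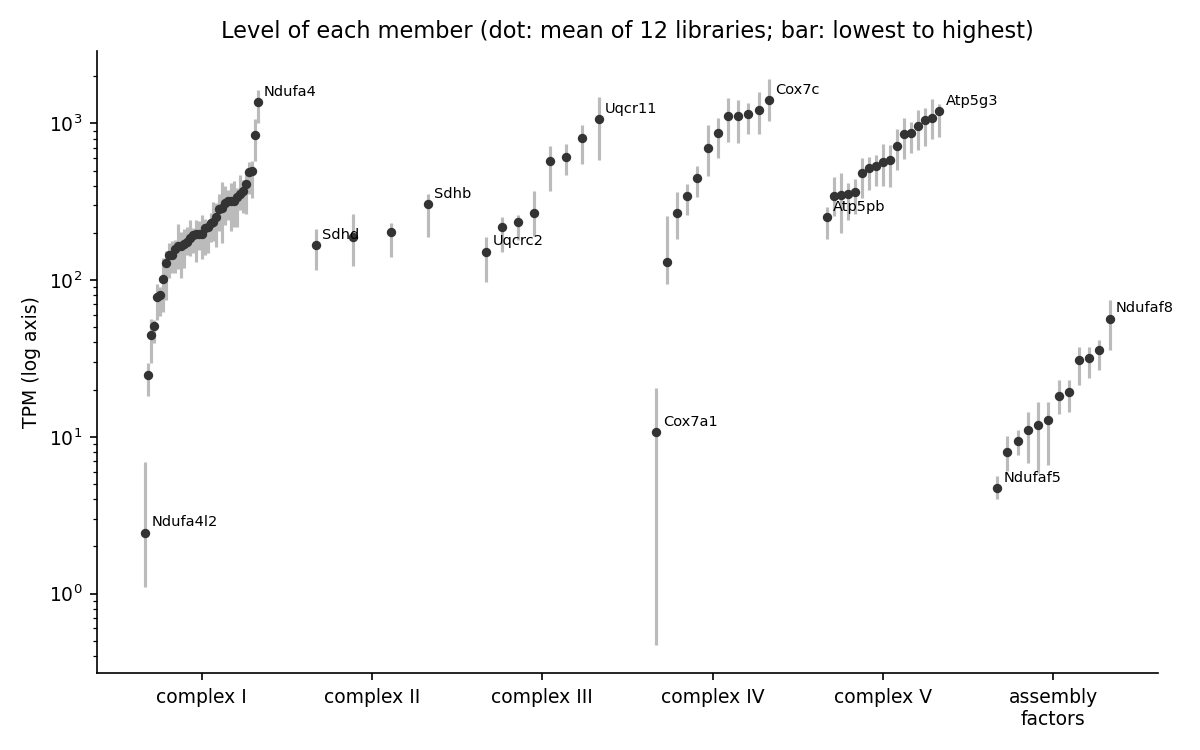
Level of each of the 92 genes, grouped by complex, in TPM on a log axis. Dots are means over 12 libraries and bars run from the lowest to the highest library. Subunit genes other than Ndufa4l2 and Cox7a1 have means above 20 TPM, and the assembly factors lie between 4.70 and 56.7 TPM.

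For differences between groups, counts were scaled by TMM, which sets the bulk of genes in each library level, and given as counts per 1000000 (CPM). Averaged over genotypes, 31 of the 92 genes fell with DEN and 0 rose (edgeR quasi-likelihood test, Benjamini-Hochberg adjusted p under 0.05 over 12909 genes), where 8.1% of all genes tested fell and 8.4% rose. The fold change was negative for 84 of 92, and the median was −0.455 on the log2 scale, beside 0.006 for all genes tested. Of complex I 14 of 39 fell, of complex II 0 of 4, of complex III 2 of 8, of complex IV 6 of 12, of complex V 7 of 17, and of the assembly factors 2 of 12. Libraries of DEN and No DEN mice did not overlap, with DEN lower, for 9 of 92 genes, where the share over all genes was 4.79%. In bulk liver, fewer cells of a type and less RNA per cell cannot be told apart.

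These counts depend on scaling, on transcript length and on single libraries. With scaling by library size alone, which moves the median of all genes to 0.278, 1 member fell (Atp5e) and 4 rose (Ndufs1, Sdha, Cox7a2l and Atp5b), where 1.88% of all genes fell and 28.0% rose. When each library's trend over transcript length was removed, 2 of the 92 members fell, Ndufs8 and Ndufa11, where 6.12% of all genes fell, and the median was −0.147. That last setting was chosen after seeing the data. No member was called, and 2.29% to 3.57% of all genes were called lower, when DEN labelled knockout replicate 1 or 2, or No DEN WT replicate 1 or 3, was left out, although all 31 kept a negative fold change without each of the 12 libraries in turn. DEN WT replicate 2 was the library lowest in these genes in TMM-scaled CPM, though not in TPM. Without it 40 fell and 1 rose (Sdha), where 12.6% of all genes fell and 10.9% rose.

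**Figure D2:**
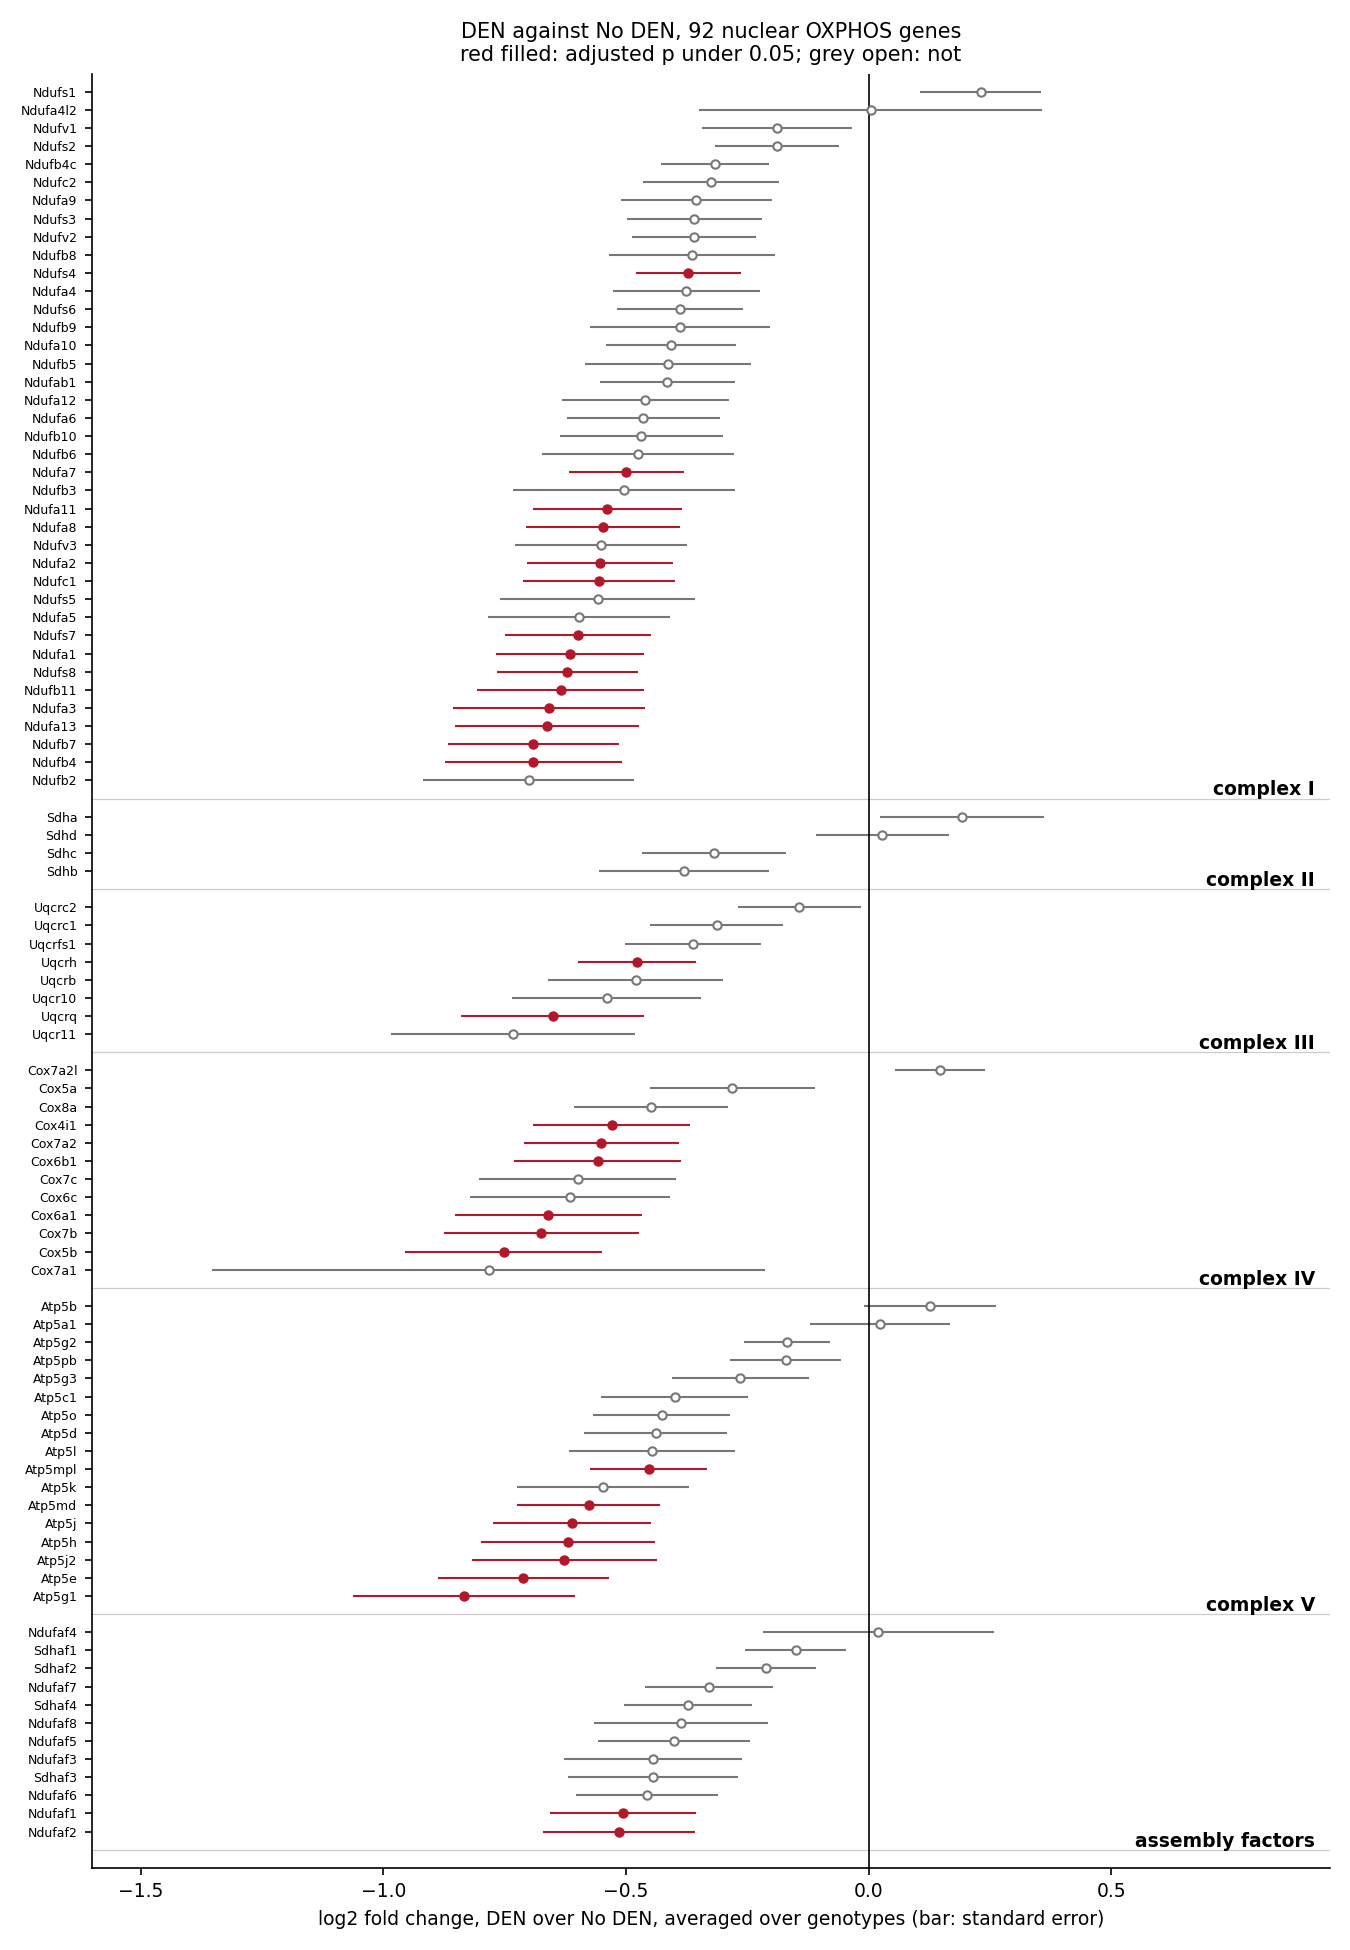
Log2 fold change of DEN over No DEN, averaged over genotypes, for each of the 92 genes within its complex. Points are edgeR estimates, bars are standard errors, and filled red points mark the 31 genes past adjusted p 0.05, all of them negative.

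Complex I has a matrix arm that takes electrons from NADH through flavin and iron-sulphur centres, and a membrane arm with many small accessory subunits. Ndufs8, which holds iron-sulphur clusters close to the quinone site, had 68.4, 68.0 and 72.8 CPM in DEN labelled knockout and 67.2, 46.8 and 75.7 CPM in DEN WT, against 80.9, 92.8 and 118 CPM in No DEN labelled knockout and 125, 86.5 and 110 CPM in No DEN WT. Every DEN library was below every No DEN library. It fell by 0.62 ± 0.14 (log2, SE, edgeR adjusted p = 0.021), the smallest p of the 92. Its neighbour in the chain, Ndufs7, fell by 0.60 ± 0.15 (adjusted p = 0.026), and so did the accessory subunits Ndufa1 by 0.62 ± 0.15 (adjusted p = 0.025) and Ndufa7 by 0.50 ± 0.12 (adjusted p = 0.021). DEN and No DEN libraries did not overlap for Ndufs7 and Ndufa1 and overlapped for Ndufa7. The core subunits at the NADH end did not pass: Ndufv2 had a log2 fold change of −0.36 ± 0.13 (adjusted p = 0.073), Ndufv1, which binds NADH and flavin, −0.19 ± 0.15 (adjusted p = 0.405) and Ndufs1, the largest iron-sulphur subunit, 0.23 ± 0.12 (adjusted p = 0.204). Ndufb4 fell by 0.69 ± 0.18 (adjusted p = 0.031), while its near copy Ndufb4c, to which shared reads may be assigned, had −0.32 ± 0.11 (adjusted p = 0.073), so both values are uncertain. Ndufa11, Ndufv2 and Ndufb4c were singled out after their values were seen, and differences between subunits were not tested.

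In complex II, which is also an enzyme of the citric acid cycle, no gene passed the test (edgeR; 0 of 4 also at an unadjusted p under 0.05, and 0 by DESeq2). Sdha, the flavoprotein subunit, had 394, 468 and 516 CPM in DEN labelled knockout and 484, 251 and 474 CPM in DEN WT, against 342, 355 and 347 CPM in No DEN labelled knockout and 359, 469 and 394 CPM in No DEN WT. Pooled over genotypes, DEN and No DEN libraries overlapped. Within labelled knockout every DEN library was above every No DEN library, as for 1911 of the 12909 genes tested. For Sdha, DEN WT replicate 2 was the lowest of all 12. Its log2 fold change was 0.19 ± 0.17 (adjusted p = 0.438), and without that library 0.32 ± 0.10 (adjusted p = 0.042). Sdhb had −0.38 ± 0.17 (adjusted p = 0.144).

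In complex III, Uqcrh, the hinge protein that contacts cytochrome c1, had 114, 114 and 129 CPM in DEN labelled knockout and 120, 84.8 and 135 CPM in DEN WT, against 136, 148 and 169 CPM in No DEN labelled knockout and 168, 163 and 187 CPM in No DEN WT. The DEN libraries all lay below the No DEN ones, and Uqcrh fell by 0.48 ± 0.12 (adjusted p = 0.028). Uqcrq fell by 0.65 ± 0.19 (adjusted p = 0.040). The Rieske iron-sulphur protein Uqcrfs1 had −0.36 ± 0.14 (adjusted p = 0.094) and the core protein Uqcrc1 had −0.31 ± 0.14 (adjusted p = 0.128).

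Complex IV had the lowest median of the 5 complexes, −0.58. Cox5b, a zinc-binding subunit on the matrix side, had 129, 135 and 151 CPM in DEN labelled knockout and 141, 73.5 and 158 CPM in DEN WT, against 145, 195 and 262 CPM in No DEN labelled knockout and 285, 203 and 237 CPM in No DEN WT. Only No DEN labelled knockout replicate 1 reached into the DEN range, and Cox5b fell by 0.75 ± 0.20 (adjusted p = 0.033). Cox4i1, the ubiquitous form of the regulatory subunit IV, fell by 0.53 ± 0.16 (adjusted p = 0.048), Cox6a1, the liver form of subunit VIa, by 0.66 ± 0.19 (adjusted p = 0.042) and Cox6b1, which sits at the dimer interface, by 0.56 ± 0.17 (adjusted p = 0.049). Cox7a2, the liver form of subunit VIIa, and Cox7b fell as well, by 0.55 ± 0.16 (adjusted p = 0.041) and 0.67 ± 0.20 (adjusted p = 0.045). Cox5a had −0.28 ± 0.17 (adjusted p = 0.256) and Cox8a −0.45 ± 0.16 (adjusted p = 0.072).

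Complex V turns on a ring of c subunits, made from 3 genes whose mature protein is the same. Atp5g1 had 131, 144 and 141 CPM in DEN labelled knockout and 82.8, 62.1 and 141 CPM in DEN WT, against 180, 219 and 242 CPM in No DEN labelled knockout and 252, 116 and 222 CPM in No DEN WT. It fell by 0.83 ± 0.23 (adjusted p = 0.034), the most negative value of the 92, with No DEN WT replicate 2 inside the DEN range. The other 2 genes for subunit c did not pass: Atp5g2 had −0.17 ± 0.09 (adjusted p = 0.199) and Atp5g3, the most abundant, −0.26 ± 0.14 (adjusted p = 0.201). Atp5e, the epsilon subunit of the central stalk, fell by 0.71 ± 0.18 (adjusted p = 0.025), and its DEN and No DEN libraries did not overlap. The catalytic subunits did not pass: Atp5b, the beta subunit, had 0.13 ± 0.14 (adjusted p = 0.529) and Atp5a1, the alpha subunit, 0.02 ± 0.14 (adjusted p = 0.923). Of the assembly factors, Ndufaf1 fell by 0.51 ± 0.15 (adjusted p = 0.044) and Ndufaf2 by 0.51 ± 0.16 (adjusted p = 0.048), both of which help to build complex I, and 0 of the 4 Sdhaf genes passed.

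The promoters of 4 members are shown, 3 of genes that fell and that of Sdhd as a gene near 0. Each runs from 250 bases before to 50 after the start in the RefSeq table (GRCm38.p6), and capitals mark matches, on either strand, to motifs of factors known to act at such promoters: GCGCA followed at once by its reverse complement for NRF1, AAGATGGCG for YY1, CCGGAAG for ETS factors such as GABP, and TCAAGGTCA for oestrogen-related receptors. Ndufs8 lies at chr19:3912725-3913024 (minus strand), Ndufs7 at chr10:80249199-80249498 (plus), Cox6a1 at chr5:115348909-115349208 (minus) and Sdhd at chr9:50603800-50604099 (minus).
Ndufs8: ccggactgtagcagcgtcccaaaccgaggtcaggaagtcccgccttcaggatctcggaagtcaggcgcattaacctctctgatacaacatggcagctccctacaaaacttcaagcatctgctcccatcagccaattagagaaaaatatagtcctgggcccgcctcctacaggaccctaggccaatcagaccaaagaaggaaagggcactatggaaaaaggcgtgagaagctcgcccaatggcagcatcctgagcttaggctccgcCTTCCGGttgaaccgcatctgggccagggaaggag
Ndufs7: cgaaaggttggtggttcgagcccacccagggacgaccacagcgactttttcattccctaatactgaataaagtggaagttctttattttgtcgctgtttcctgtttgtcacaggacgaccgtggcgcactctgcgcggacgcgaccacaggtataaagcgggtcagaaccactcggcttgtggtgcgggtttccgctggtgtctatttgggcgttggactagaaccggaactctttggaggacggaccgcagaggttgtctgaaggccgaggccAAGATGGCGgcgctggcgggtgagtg
Cox6a1: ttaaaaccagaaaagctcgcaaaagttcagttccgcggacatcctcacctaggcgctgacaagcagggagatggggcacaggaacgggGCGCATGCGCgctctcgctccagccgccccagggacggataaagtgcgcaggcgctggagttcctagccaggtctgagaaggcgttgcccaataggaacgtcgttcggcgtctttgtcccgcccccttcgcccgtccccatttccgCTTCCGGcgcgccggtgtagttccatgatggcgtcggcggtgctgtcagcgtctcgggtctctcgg
Sdhd: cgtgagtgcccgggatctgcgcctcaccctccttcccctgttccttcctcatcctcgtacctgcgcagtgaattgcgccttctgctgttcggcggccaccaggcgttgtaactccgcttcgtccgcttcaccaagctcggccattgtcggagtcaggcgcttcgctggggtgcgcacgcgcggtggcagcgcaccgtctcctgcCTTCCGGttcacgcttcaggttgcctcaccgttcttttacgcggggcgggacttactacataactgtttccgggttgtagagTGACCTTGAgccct
Ndufs8 holds the ETS motif after its start, Ndufs7 the YY1 motif, Cox6a1 the NRF1 and ETS motifs and Sdhd the ETS and oestrogen-related receptor motifs. All 4 promoters shown hold a motif, whereas those of Ndufa1 and Cox5b, which also fell, hold 0. A part of these motifs in the joint movement of the members was not tested.

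The table had promoters for 77 of the 92 genes, 82 in all. The NRF1 motif was in 8.54% of these promoters, against 1.95% of 13256 promoters of all genes tested. The YY1 motif was in 9.76% against 2.80%, the ETS motif in 26.8% against 16.5%, and the oestrogen-related receptor motif in 2.44% against 0.294%. At least 1 of the 4 motifs was in 41.5% of member promoters and in 20.4% of all. Among genes that fell, 15 of 29 promoters held at least 1 motif, and among the other members 19 of 53. These are matches of letters in a fixed window. Log2 fold changes with DEN of factors from the list of biogenesis regulators were −0.11 ± 0.16 for Nrf1 (adjusted p = 0.635), 0.16 ± 0.10 for Gabpa (adjusted p = 0.267), 0.27 ± 0.22 for Esrra (adjusted p = 0.407) and −0.06 ± 0.09 for Yy1 (adjusted p = 0.641), and 0 of the 14 genes of that list passed the test. These 4 are named because they, or complexes they belong to, bind the motifs searched, not for their values.

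Members varied together from library to library. For each gene the log2 CPM was set against its mean over 12 libraries, and the median of the 92 deviations was −0.23, −0.16 and −0.03 in DEN labelled knockout, −0.15, −0.80 and 0.02 in DEN WT, −0.10, 0.19 and 0.42 in No DEN labelled knockout, and 0.42, 0.08 and 0.41 in No DEN WT. DEN WT replicate 2 stands apart at the low end. No DEN labelled knockout replicate 1 and No DEN WT replicate 2 are the lowest of their groups. The median correlation between 2 members over 12 libraries was 0.905, a description of libraries that share scaling and sequencing. Cox7a2l ran against the rest, with a median correlation of −0.80.

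**Figure D3:**
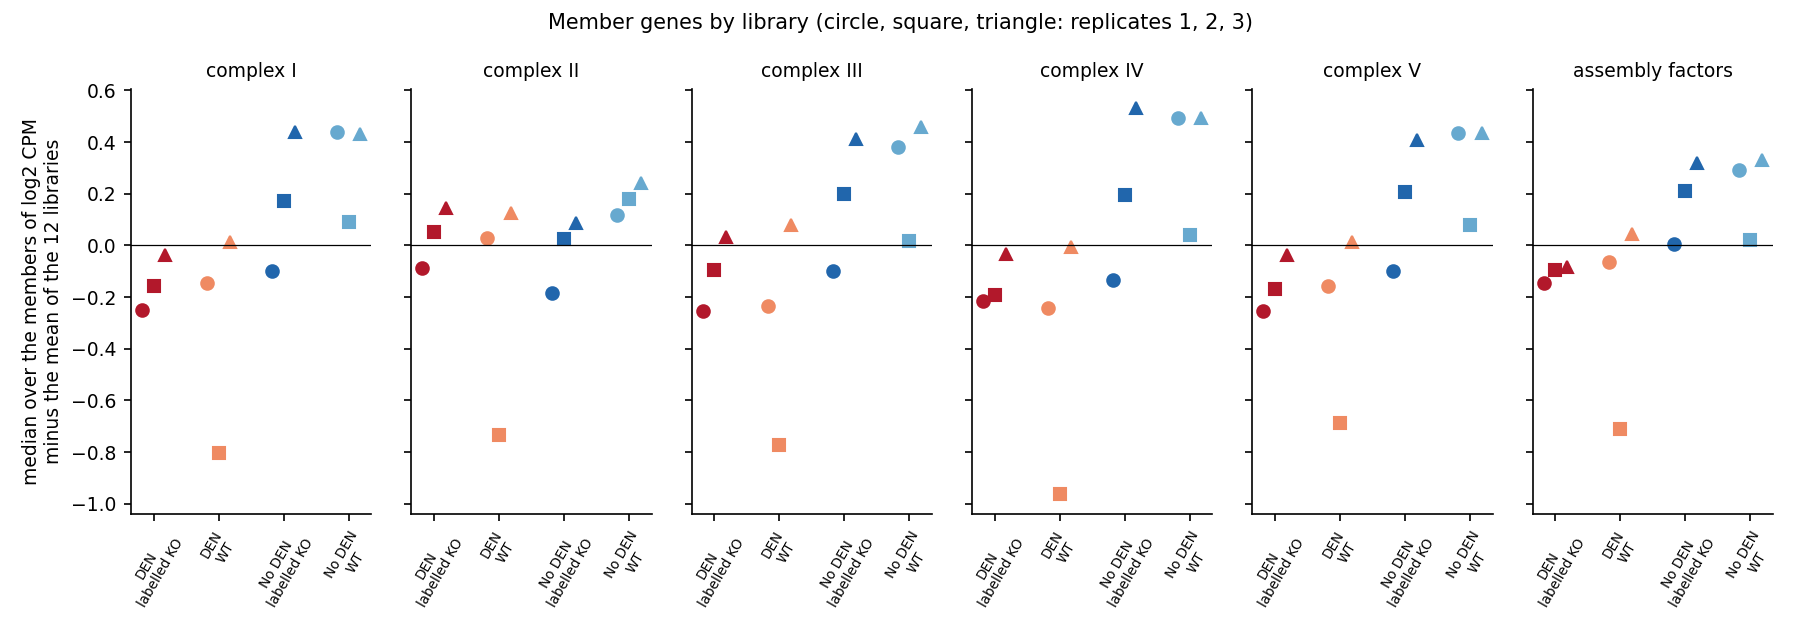
Median deviation of the member genes of each complex from their 12-library mean, in log2 CPM, by library, for DEN labelled knockout, DEN WT, No DEN labelled knockout and No DEN WT. DEN WT replicate 2 (square) lies lowest in all 6 panels, and No DEN labelled knockout replicate 1 (circle) is the lowest of its group.

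Most of these genes have short transcripts. Effective length was taken from the ratio of counts to TPM, relative to the median gene tested: the median member was 0.176 of it, 89 of 92 were shorter than it, and 82 were in the shortest 20% of genes. For those 82 members the median log2 fold change with DEN was −0.472 and 30 fell. Among genes outside the set, the median log2 fold change with DEN was −0.212 in the shortest 20%, with 17.8% called lower, and 0.130 in the longest 20%, with 3.21% called lower. Across the 92 members, Spearman's rho between length and fold change was 0.57, a description over genes. The members with positive values include the long ones Ndufs1, Sdha, Atp5b and Atp5a1. The length at which counts centre in a library was 1.44 to 1.49 in DEN libraries and 1.26 to 1.47 in No DEN libraries. These values are relative to the mean length weighted by TPM, not to the median gene. The part of length in the result was not tested beyond the setting that removes its trend.

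**Figure D4:**
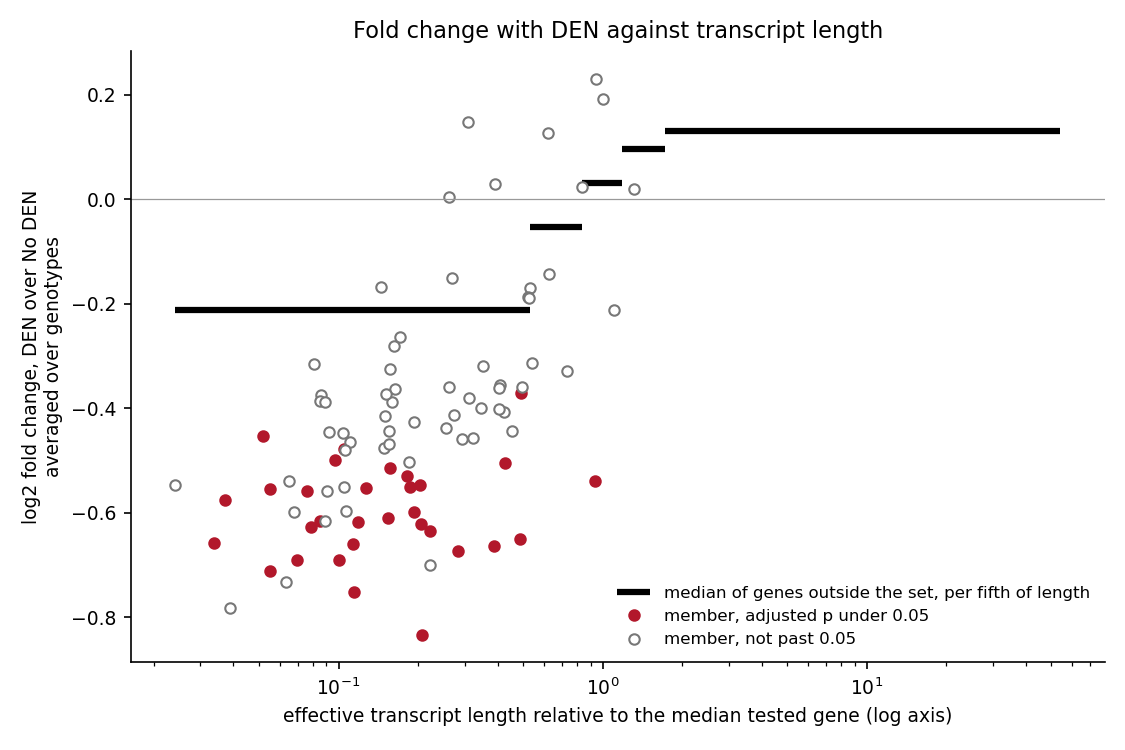
Log2 fold change of DEN over No DEN, averaged over genotypes, against effective transcript length relative to the median tested gene (log axis). Points are the 92 genes, filled where the adjusted p is under 0.05, and black bars are medians of genes outside the set in each 20% of length, from −0.212 for the shortest to 0.130 for the longest.

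Within WT mice alone, 0 of 92 genes passed the test for DEN, where 1.36% of all genes were called lower and 1.39% higher. An unadjusted p under 0.05 was found for 65 members, and for 3828 of the 12909 genes tested. DESeq2 called 35 members lower, where it called 7.55% of all genes lower. Limma-voom called 0 where 1.27% of all genes were lower, and limma-voom with quality weights 64 where 16.7% were. The median log2 fold change was −0.598, and −0.393 without DEN WT replicate 2. In that fit 43 members, and 3258 of the 12962 genes tested, had an unadjusted p under 0.05. The 3 DEN WT libraries lay wholly below the 3 No DEN WT libraries for 57 genes, against 17.6% of all genes. They lay wholly above for 1 member, and for 2377 of the 12909 genes tested. Within labelled knockout mice 0 of 92 passed, where 0.0465% of all genes were called lower and 0.147% higher. There, 12 members had an unadjusted p under 0.05, as did 2458 of the 12909 genes tested. DESeq2 called 0 members, where 3.06% of all genes were lower and 3.77% higher. Limma-voom called 0 members, where 0.0387% of all genes were lower and 0.116% higher. With quality weights it called 33 members lower and 2 higher, where 9.18% of all genes were lower and 9.0% higher. The median was −0.317, and −0.197 without No DEN labelled knockout replicate 3. Libraries did not overlap, with DEN lower, for 23 genes, against 16.5% of all genes. With DEN higher they did not overlap for 3 members, Ndufs1, Sdha and Sdhd, and for 1911 of the 12909 genes tested. The smallest p was that of Ndufs8 in WT, −0.76 ± 0.21 (adjusted p = 0.062), and of Ndufa1 in labelled knockout, −0.59 ± 0.22 (adjusted p = 0.183).

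The difference between these DEN effects, labelled knockout minus WT, had a median of 0.279 and was positive for 85 of 92 genes, but 0 passed the edgeR test of the interaction, 0 had an unadjusted p under 0.05 and DESeq2 called 0. Without DEN WT replicate 2 the median was 0.067, without DEN WT replicate 3 0.452, and without No DEN labelled knockout replicate 1 0.158. Labelled knockout against WT under DEN gave a median of 0.137, with 83 of 92 genes positive, and −0.069, with 21 positive, without DEN WT replicate 2. It was 0.223 and 0.301 without DEN WT replicates 1 and 3, and 0.079 without DEN labelled knockout replicate 3. In each case 0 genes passed, where 0% of all genes were called, and under DEN 0 members had an unadjusted p under 0.05. The fold changes ran from −0.24 to 0.54. The 3 smallest p were those of Ndufaf8, with 0.50 ± 0.25 (adjusted p = 0.523), Atp5g1, with 0.54 ± 0.32 (adjusted p = 0.567), and Cox7a2l, with −0.21 ± 0.13 (adjusted p = 0.585). Without DEN the median was −0.132, and it was −0.014 without No DEN labelled knockout replicate 1, −0.282 without replicate 3 of that group, and −0.060, −0.232 and −0.092 without No DEN WT replicates 1, 2 and 3. There 0 passed, and 1 had an unadjusted p under 0.05, the complex II assembly factor Sdhaf1, at 0.41 ± 0.15 (adjusted p close to 1). Averaged over treatments the median was −0.007, and −0.103 to 0.071 with 1 library left out, and 0 passed, or had an unadjusted p under 0.05, with Sdhaf1 at 0.22 ± 0.10 (adjusted p = 0.759). DESeq2 called 0 members in each of these comparisons, while under DEN it called 0.263% of all genes higher and 0.821% lower in labelled knockout.

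Paralogues of subunits set DEN WT replicate 2 apart. Cox7a2l, a paralogue of Cox7a2, had 139, 132 and 139 TPM in DEN labelled knockout and 134, 257 and 135 TPM in DEN WT. In No DEN mice it had 99.8, 108 and 93.9 TPM in labelled knockout and 106, 120 and 101 TPM in WT. Every DEN library was above every No DEN library in TPM. In TMM-scaled CPM the libraries pooled over genotypes overlapped, though DEN and No DEN libraries of WT alone did not. The log2 fold change of Cox7a2l was 0.15 ± 0.09 (edgeR adjusted p = 0.277), or 0.07 ± 0.07 without DEN WT replicate 2. Cox7a1 had 9.11, 8.93 and 12.9 TPM in DEN labelled knockout and 7.78, 0.47 (from 1 read) and 14.4 TPM in DEN WT, against 4.37, 9.61 and 20.5 TPM in No DEN labelled knockout and 12.3, 17.4 and 10.2 TPM in No DEN WT. Ndufa4l2 had 2.52, 1.91 and 2.68 TPM in DEN labelled knockout and 1.15, 6.92 and 1.92 TPM in DEN WT, against 1.10, 2.13 and 3.22 TPM in No DEN labelled knockout and 1.59, 2.21 and 2.02 TPM in No DEN WT. In both genes DEN WT replicate 2 was the extreme library, lowest for Cox7a1 and highest for Ndufa4l2, and neither passed the test with DEN. Atpif1, the inhibitor of the ATP synthase, was 86.7 TPM in that library and 11.7 to 18.4 TPM in the other 11.

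**Figure D5:**
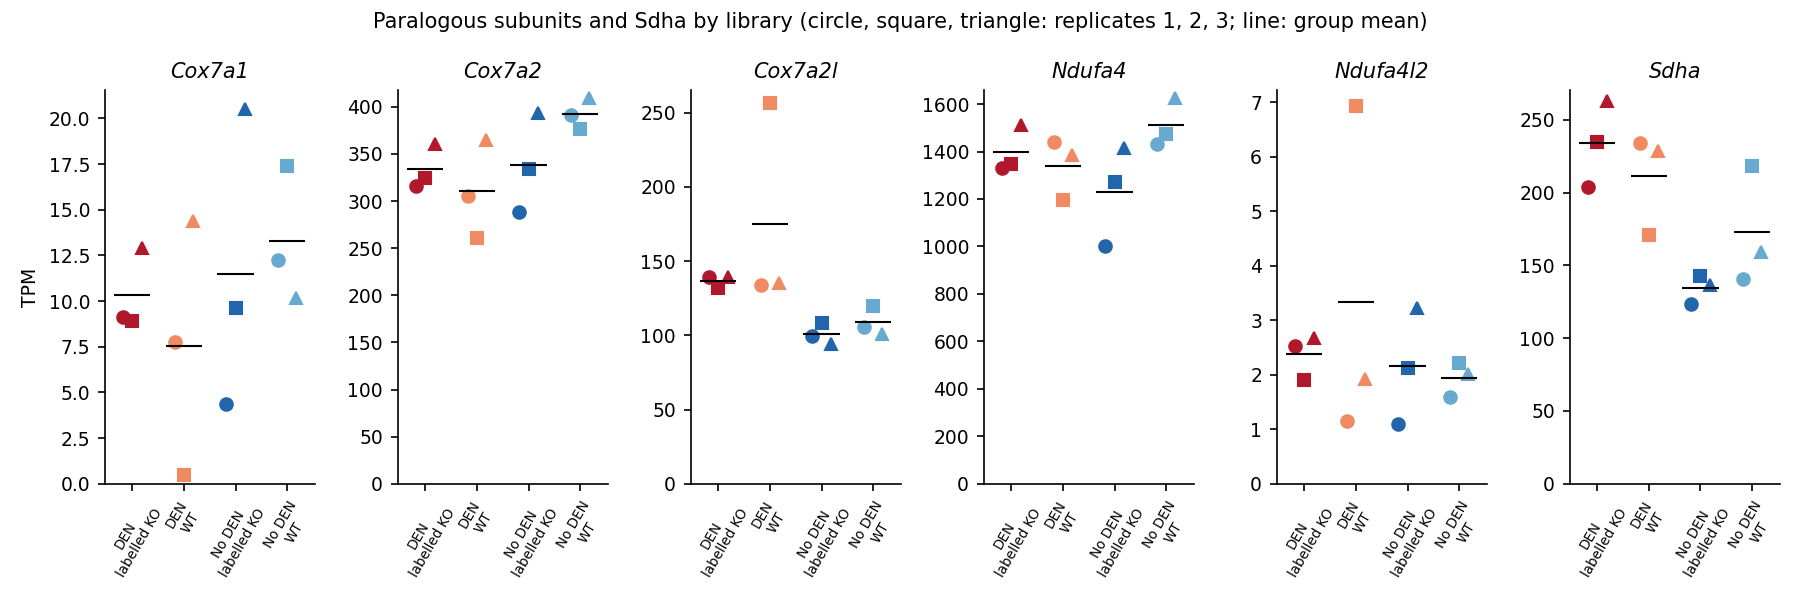
TPM of Cox7a1, Cox7a2, Cox7a2l, Ndufa4, Ndufa4l2 and Sdha by library in DEN labelled knockout, DEN WT, No DEN labelled knockout and No DEN WT. Points are libraries and lines are group means; DEN WT replicate 2 (square) is at 0.47 TPM for Cox7a1, 257 TPM for Cox7a2l and 6.92 TPM for Ndufa4l2.

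Other genes of the pathway were counted from lists, for DEN averaged over genotypes, where 8.1% of all genes tested fell and 8.4% rose. Of 23 complex IV assembly genes 6 fell and 0 rose, among them Sco2, a copper chaperone, by 1.42 ± 0.24 (adjusted p = 0.009), with 25.4, 23.5 and 32.9 TPM in DEN labelled knockout and 24.7, 28.9 and 29.4 TPM in DEN WT, against 25.5, 35.7 and 77.1 TPM in No DEN labelled knockout and 65.0, 60.4 and 81.9 TPM in No DEN WT. Of 6 complex III assembly genes 2 fell, Uqcc3 by 0.70 ± 0.13 (adjusted p = 0.011) and Uqcc2 by 0.64 ± 0.13 (adjusted p = 0.013). Of 13 coenzyme Q synthesis genes 2 fell, Coq3 by 0.59 ± 0.11 (adjusted p = 0.010) and Coq4 by 0.43 ± 0.10 (adjusted p = 0.024). Of 8 carriers and channels 2 rose and 0 fell: Ucp2, an uncoupling protein abundant in macrophages, by 1.35 ± 0.29 (adjusted p = 0.017) and Slc25a4, the muscle form of the ADP/ATP carrier, by 0.85 ± 0.23 (adjusted p = 0.033). Of 17 citric acid cycle genes 0 passed in either direction, of 12 other complex I assembly genes 0, and of 5 genes for complex V assembly and inhibition 0. Of 78 mitochondrial ribosomal genes 30 fell and 0 rose, with a median of −0.33, and of 82 cytosolic ribosomal genes 24 fell and 0 rose, with a median of −0.279. Both lists are short, with median lengths of 0.308 and 0.169 of the median gene. In the shortest 20% of genes, 17.8% of those outside the 92 were called lower. Cytochrome c carries electrons to complex IV, and cytochrome c1 is a subunit of complex III that the symbol rule left out. Their log2 fold changes were −0.31 ± 0.16 for Cycs (edgeR adjusted p = 0.174) and −0.26 ± 0.15 for Cyc1 (adjusted p = 0.225).

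Markers of some cell types other than hepatocytes rose with DEN, where 8.4% of all genes tested rose and 8.1% fell. All 5 sinusoidal endothelial markers rose, and their sum was 42.4 to 50.3 TPM in DEN labelled knockout and 51.2 to 62.6 TPM in DEN WT, against 10.2 to 16.4 TPM in No DEN labelled knockout and 16.9 to 23.8 TPM in No DEN WT. Of 5 Kupffer cell and macrophage markers 4 rose, with sums of 95.1 to 362 TPM in DEN labelled knockout and 78.5 to 154 TPM in DEN WT, against 35.9 to 57.3 TPM in No DEN labelled knockout and 18.5 to 74.5 TPM in No DEN WT. Of 5 stellate cell markers 2 rose, with sums of 110 to 118 and 97.3 to 127 TPM in the DEN groups (labelled knockout, then WT), against 24.9 to 59.1 and 46.2 to 74.3 TPM in the No DEN groups. Of 5 hepatocyte markers 1 fell, Apoa1, and the sum was 73945 to 79051 TPM in DEN labelled knockout and 68882 to 119426 TPM in DEN WT, against 53362 to 99822 TPM in No DEN labelled knockout and 81076 to 89491 TPM in No DEN WT. The 119426 TPM belongs to DEN WT replicate 2, where the 5 markers split. Alb, Apoa1 and Ttr were the highest of all libraries there, and Cyp2e1 (82.3 TPM) and Cps1 (223 TPM) the lowest. Cyp2e1 had 3970 to 7442 TPM in every other library. Of 5 cholangiocyte markers 0 passed in either direction, with sums of 39.0 to 39.8 TPM in DEN labelled knockout and 31.9 to 48.7 TPM in DEN WT, against 27.0 to 52.4 TPM in No DEN labelled knockout and 23.5 to 34.8 TPM in No DEN WT. Of 5 lymphocyte markers 0 passed, with sums of 4.41 to 37.2 TPM in DEN labelled knockout and 4.38 to 10.4 TPM in DEN WT, against 1.59 to 2.66 TPM in No DEN labelled knockout and 2.29 to 5.30 TPM in No DEN WT. All markers of these 6 lists were listed above 0 in all libraries. Their part in the values of the 92 genes was not tested.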

How the data were processed

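RNA of 12 liver samples was sequenced. The authors deposited, per the file headers, a read count and a TPM per gene and library in 4 tables of protein-coding genes. The deposited counts are expected counts, since 6.58% to 7.39% of values per library are not whole. RSEM 1.3.1, DESeq2 1.4.5, Bowtie2 2.3.4.3 and HISAT2 2.2.1 are named, with GRCm38.p6, in the submitters' processing notes. What each did, and whether strand was used in counting, is not given in the sources used here, so reads of overlapping or near-identical genes cannot be told apart. A gene appears in a table only where its TPM reaches 0.01 in each of the 3 libraries. Library totals were 29668861 to 31111765 counts, and differed little in precision.

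Counts were rounded, scaled by TMM and filtered with filterByExpr, and 1 edgeR 4.0.16 quasi-likelihood model (robust, 8 residual degrees of freedom) was fitted to all libraries, with 7 contrasts and limma 3.58.1 and DESeq2 1.42.0 as alternatives. Adjusted p is Benjamini-Hochberg over 12909 genes. Nothing says how replicates of a group relate beyond being separate samples, so p-values measure the spread between these samples, which may in part be technical. Tested on simulated data for DEN averaged over genotypes (12833 genes), 48% of genes changed 2-fold and 87% of those changed 4-fold were called. Members and lists were chosen with earlier results of these data known. Named genes were drawn from a list that began with Otud3. Per complex it held the 4 members with the smallest p among those called, and the members of highest and lowest TPM. It also held the 3 members with the smallest p where none was called, and a fixed set of core subunits and paralogues. Values are not given for every gene on it, and Atp5j and Atp5md, which fell, are among those left out. Related lists give up to 4 genes each, and all 5 hepatocyte markers are named.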

Additional observations from a re-analysis of the deposited data

Results flagged for a closer look

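Cox6a2, the heart and muscle form of subunit VIa, was outside the tested genes because it is listed in the DEN WT table only. It had 0.33, 8.54 and 0.21 TPM in the 3 DEN WT libraries, from 3, 72 and 2 reads. The value of 8.54 TPM in DEN WT replicate 2 is a signal in data that no comparison used, and the gene is not listed for the No DEN libraries, so no fold is given.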

How the results depend on the processing

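The sign of the median DEN effect averaged over genotypes, −0.455, was negative under all 8 other planned or added settings and without each library. The number of members called was not stable: beside 31, it was 5 (4 higher) with library size scaling (1.88% of all genes lower, 28.0% higher), 52 with DESeq2 (12.7% of all genes lower), 77 (3 higher) with limma-voom and quality weights (21.9% lower, 20.4% higher) and 2 with the length trend removed (6.12% lower), which gave a median of −0.147. Leaving out 1 library gave 0 to 53 members (0 without DEN labelled knockout replicate 1 or 2 and without No DEN WT replicate 1 or 3; 8 without DEN labelled knockout replicate 3, 14 without DEN WT replicate 1, 6 and 4 without No DEN labelled knockout replicates 2 and 3, 53 without DEN WT replicate 3), while 2.29% to 12.6% of all genes were called lower. In WT, DEN called 35 members with DESeq2 (7.55% of all genes lower) and 64 with limma-voom and quality weights (16.7% lower). Without 1 library 0 to 13 members were called, the 13 without DEN WT replicate 3 (3.12% of all genes lower). The median in WT moved to −0.260 with the length trend removed. In labelled knockout, DEN called 35 with limma-voom and quality weights (9.18% lower, 9.0% higher). Summed CPM with DEN minus No DEN (log2) was −0.440 for complex I, −0.077 for II, −0.459 for III, −0.546 for IV, −0.243 for V, −0.321 for assembly factors and −0.365 for all members; summed TPM gave −0.095, 0.205, −0.157, −0.170, −0.055, 0.003 and −0.100. Atp5mpl, which fell, had 0.041 with the length trend removed. Where no value above shows it, the cause was not tested.

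Replicate numbers pair nothing in the labels, and same-numbered libraries correlated between −0.19 and 0.22. With the replicate block 39 members were called lower for DEN averaged over genotypes, where 7.48% of all genes were, and 1 for DEN in WT, where 1.76% were. Comparisons of the knockout label and the interaction called 0 members in every setting run. The largest shares of all genes called there were 1.27% higher and 2.22% lower, for the knockout label with DEN by limma-voom with quality weights.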

Other observations

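Among other cytochrome c oxidase paralogues outside the tested genes, Cox8b, the heart and muscle form of subunit VIII, which brown fat also expresses, had 1.63, 1.25 and 0.41 TPM in DEN labelled knockout, against 0.38, 21.8 and 0.40 TPM in No DEN WT, and is not listed in the other groups. The high value rests on 50 reads in No DEN WT replicate 2. In No DEN WT, the fat marker Adipoq had 0.04, 11.6 and 0.20 TPM and Plin1 0.02, 3.75 and 0.09 TPM, both highest in replicate 2, and neither is listed in the other 3 groups. Cidea had 6.19, 6.60 and 23.7 TPM in DEN labelled knockout and 6.08, 3.26 and 47.2 TPM in DEN WT, against 0.08, 0.21 and 0.55 TPM in No DEN labelled knockout and 1.23, 14.3 and 1.73 TPM in No DEN WT. Cox6b2, the testis form of subunit VIb, and Cox4i2, the lung form of subunit IV, stayed under 1 TPM wherever they are listed.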
